A study of Mus musculus with 8 samples.

Results

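The Hox genes of the mouse Hoxa, Hoxb, Hoxc and Hoxd clusters were followed across cell groups and stages in chimaeric embryos that held cells without the TET enzymes. Members were all genes whose name in the deposited feature lists was Hox, a cluster letter and a number, which gave 39 of 55422 features. On mm10 the Hoxa cluster holds 11 of them on the minus strand of chromosome 6 (chr6:52155590-52260880), and the Hoxb cluster holds 10 on the plus strand of chromosome 11 (chr11:96194316-96368256). The Hoxc cluster holds 9 on the plus strand of chromosome 15 (chr15:102921103-103036852), and the Hoxd cluster holds 9 on the plus strand of chromosome 2 (chr2:74668310-74765142). Other annotated genes share exons on the same strand with 3 Hoxa, 2 Hoxc and 4 Hoxd members, so counts of Hoxa2, Hoxa3, Hoxa9, Hoxc5, Hoxc10, Hoxd3, Hoxd4, Hoxd10 and Hoxd11 are uncertain where reads could be split.

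Tet-TKO libraries held tdTomato-positive cells, derived from 1 H2B-tdTomato embryonic stem cell line that lacks Tet1, Tet2 and Tet3 and has a C57BL/6J-129Sv background. WT host libraries held tdTomato-negative cells of the C57BL/6J blastocysts into which that line was injected. Both groups thus came from chimaeric embryos, which were pooled before sorting, and strain and genotype cannot be told apart. Embryonic day 8.5 (E8.5) gave 4 Tet-TKO libraries and 2 of WT host cells, and E7.5 gave 1 of each, all 10x Genomics 3′ counts of unique molecular identifiers (UMIs). Kept cells numbered 1012 to 9552 per library, with 65601218 to 136982886 UMIs in the deposited barcodes and a median of 12176 to 68704 UMIs per kept cell. Tet-TKO libraries 1 and 2 resembled each other, as did 3 and 4, while the pairs stood apart: the chi-square per degree of freedom of their summed counts was 15.5 and 17.8 within the pairs and 176 to 190 between them, against 141 between the WT host libraries. Libraries 3 and 4 were also the deepest, with medians of 40386.5 and 68704 UMIs per cell, and results are therefore also given without either pair. Any 2 libraries shared at most 0.434% of the kept barcodes of the smaller one. A tdTomato UMI was found in 60.8% to 87.2% of kept Tet-TKO cells and in 0.532% to 0.841% of kept WT host cells. UMIs of Tet1, Tet2 and Tet3 were present in every library (at E8.5, 9.93 to 20.9 UMIs of Tet1 per 1000000 UMIs, CPM, in Tet-TKO and 20.4 to 22.5 in WT host cells), and 3′ tags outside the deleted parts check nothing about the deletion.

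Hox genes encode homeodomain transcription factors that give cells their address along the head-to-tail axis. Genes of low paralogue number lie at the 3′ end of each cluster and are switched on first and furthest to the front, whereas genes of high number follow later and nearer the tail, an order called collinearity. Retinoic acid, Wnt and FGF signals, partly through the Cdx factors, open the clusters, Polycomb proteins keep them silent elsewhere, and their promoters are rich in CpG, the dinucleotide whose methylated cytosine TET enzymes oxidise.

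Promoters of 3 members are shown because they belong to the members on which the genotype comparison turned: Hoxb4, called lower in mesenchyme-like cells, Hoxb1, lower in the most cell classes, and Hoxa5, higher in the most, by an unadjusted p under 0.05. Hoxa5 and other members outside the rule for named genes were chosen after their values were seen. Each line gives the 250 bases upstream of a RefSeq transcription start on GRCm38.p6, 5′ to 3′ on the strand of the gene, with every CG in capitals.
Hoxb4 (chr11:96318017-96318266, plus strand, 14 CG): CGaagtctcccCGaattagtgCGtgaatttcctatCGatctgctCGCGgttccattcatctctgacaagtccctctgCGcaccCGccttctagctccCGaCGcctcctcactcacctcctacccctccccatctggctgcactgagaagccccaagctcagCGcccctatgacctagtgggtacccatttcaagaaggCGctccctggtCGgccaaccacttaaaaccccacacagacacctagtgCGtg
Hoxb1 (chr11:96365508-96365757, plus strand, 7 CG): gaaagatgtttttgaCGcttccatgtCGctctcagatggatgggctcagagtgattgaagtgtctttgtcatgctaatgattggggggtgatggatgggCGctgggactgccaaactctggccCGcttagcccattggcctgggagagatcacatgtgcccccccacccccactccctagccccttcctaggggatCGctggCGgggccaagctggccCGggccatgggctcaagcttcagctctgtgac
Hoxa5 (chr6:52204588-52204837, minus strand, 28 CG): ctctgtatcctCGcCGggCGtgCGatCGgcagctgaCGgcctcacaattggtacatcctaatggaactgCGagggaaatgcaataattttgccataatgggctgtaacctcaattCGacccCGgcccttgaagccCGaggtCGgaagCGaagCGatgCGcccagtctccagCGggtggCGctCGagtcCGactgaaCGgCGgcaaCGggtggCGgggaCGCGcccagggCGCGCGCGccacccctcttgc
RefSeq promoters were matched for 22 of the 39 members, in 24 windows because Hoxa10 and Hoxd11 have a second start. These windows held a median of 12.5 CG (2 to 35), against 6 over all 32851 promoters. The letters TTTATG, a core of Cdx binding motifs, were found on either strand in 5 of the 24 windows (Hoxa7, Hoxb8, Hoxd3, Hoxd4 and 1 start of Hoxd11) and in 10.8% of all promoters. TGATNNAT, a form of the joint PBX-HOX motif, was found in 4 windows (Hoxa2, Hoxb1, Hoxb8 and the other start of Hoxd11) and in 7.68% of all. The motifs were counted separately, so matches may share bases, and a match is a description of the sequence, not a binding site.

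Cell classes were built without Hox genes, so that the levels below did not define them. A class is called X-like where marker genes carried the name; other clusters keep their number and are described by their leading genes. Levels are CPM, UMIs per 1000000 UMIs of the class in a library. A 3′ library counts 1 tag per molecule, so levels were not divided by gene length, and the order of genes depends on how well each 3′ end was captured.

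WT host cells at E8.5 showed a graded Hox code (see the map of levels). Caudal epiblast and neuromesodermal progenitor (NMP)-like cells, which feed the growing tail end, had the highest summed level, 1759 and 2247 CPM in the 2 WT host libraries. Cluster 7, led by Cdx4, Fendrr and Evx1, followed with 1698 and 2176, and presomitic mesoderm-like cells with 1485 and 2089. The ranges of these 3 classes overlap. Hoxb8 (281 and 286) and Hoxc8 (184 and 371), both trunk genes, and Hoxb9 (205 and 292) led in the NMP-like cells. In the presomitic class Hoxb8 (169 and 217) was accompanied by Hoxb1 (158 and 179), a gene of the hindbrain and early mesoderm.

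**Figure D1:**
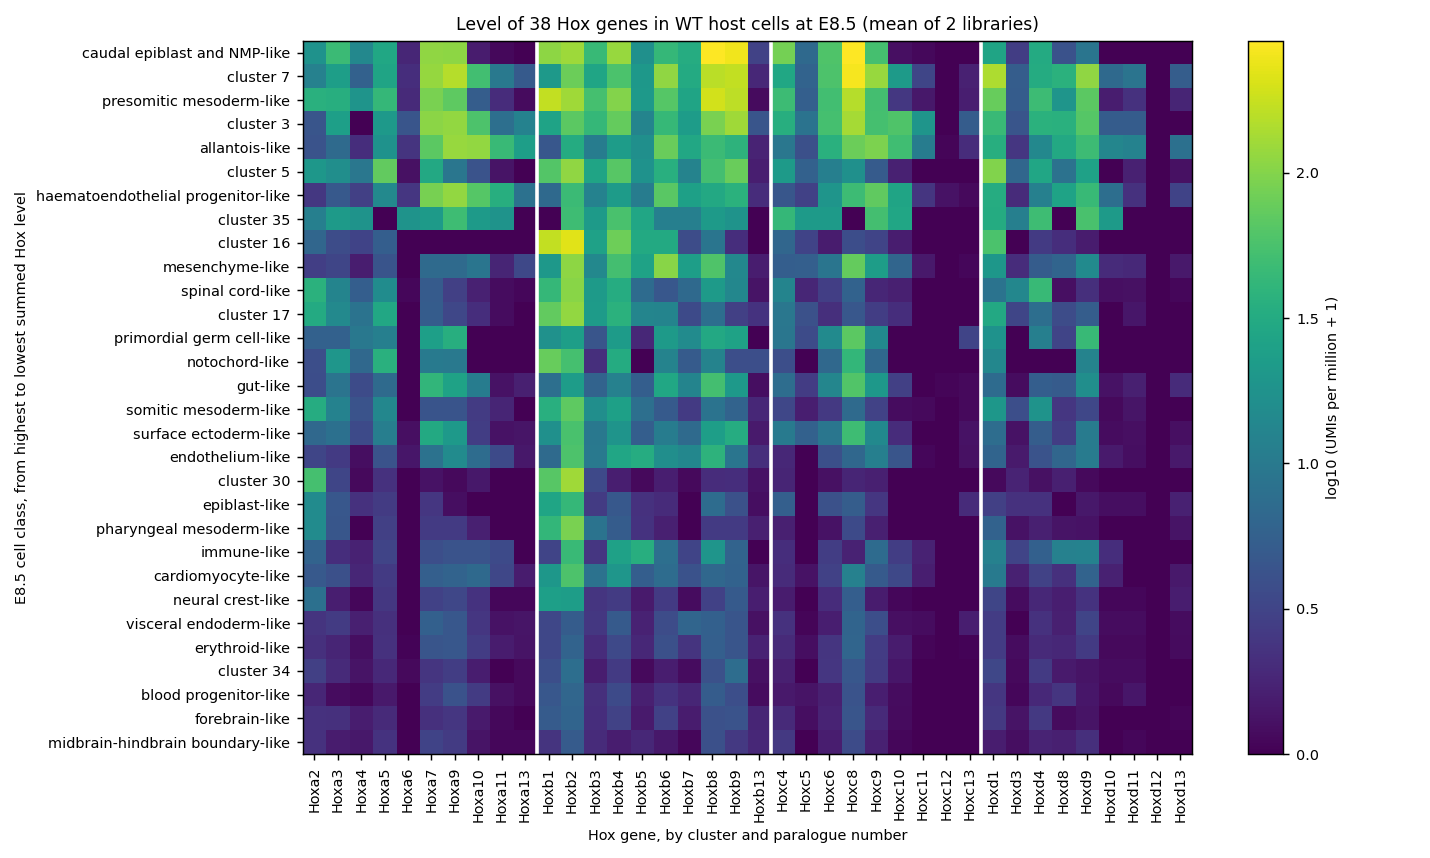
Mean level of 38 Hox genes (columns, by cluster and paralogue number) in each E8.5 cell class of the 2 WT host libraries (rows, from highest to lowest summed level), as log10 of CPM plus 1. The upper rows, NMP-like to allantois-like, are filled across all clusters, middle rows such as spinal cord-like and cluster 30 are filled mainly in paralogue groups 1 to 4, and the bottom rows hold little.

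Allantois-like and haematoendothelial progenitor-like cells had the highest mean paralogue numbers of the E8.5 classes in WT host cells, 7.80 and 7.34. Allantois-like cells, which form the umbilical vessels, had 1063 and 1157 Hox CPM, and 51.1% ± 1.6 (SD, n = 2) of them came from paralogue groups 9 to 13, against 20.6% ± 4.1 in NMP-like cells. Hoxa9 (118 and 116), Hoxa10 (128 and 100) and Hoxc9 (95.6 and 87.2) led there. Haematoendothelial progenitor-like cells, the source of blood and vessel cells, were similar, with 834 and 919 Hox CPM, 46.3% ± 1.0 of them from groups 9 to 13 and Hoxa9 at 113 and 112. Mesenchyme-like cells drew a smaller share than NMP-like cells from groups 9 to 13, 11.8% ± 1.6. They had 618 and 656 Hox CPM and drew 416 ± 22.4 of these from the Hoxb cluster, led by Hoxb2 (106 and 112) and Hoxb6 (100.04 and 106).

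Trunk and head classes expressed anterior genes. Spinal cord-like cells had 527 and 555 Hox CPM, somitic mesoderm-like cells 393 and 394, and the UMI-weighted mean paralogue number was 2.90 ± 0.55 and 2.75 ± 0.32, against 5.92 ± 0.48 in NMP-like and 7.80 ± 0.03 in allantois-like cells. Hoxb2 had 106 and 102 in spinal cord-like and 66.6 and 70.1 in somitic mesoderm-like cells. Cluster 16, led by Mab21l2, Tnc and Colec10, held 653 and 702 Hox CPM, of which Hoxb2 (213 and 223) and Hoxb1 (179 and 156) made up the largest parts. Cluster 30, led by Vgll3, Msx3, Nkx6-2 and the hindbrain gene Egr2, held 259 and 281, with a mean paralogue number of 1.92 ± 0.10.

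Forebrain-like cells, which should lack Hox genes, had 46.9 and 40.1 Hox CPM, and midbrain-hindbrain boundary-like, erythroid-like and blood progenitor-like cells had 19.9 to 60.6. The source of these UMIs was not tested, and levels this low in other classes are not read as expression. With each cell thinned to 5000 UMIs, 7.17% (4.43 to 10.9, exact 95% binomial interval, counting error only) and 9.13% (6.58 to 12.3) of WT host forebrain-like cells had a Hox UMI, against 100% (lower bounds 98.5 and 98.7) of NMP-like cells; without thinning the forebrain-like mean was 14.9%. Thinning left out 10 and 25 forebrain-like and 9 and 32 NMP-like cells, and median depths before it were 14570, 14553.5, 14444 and 11800.5 UMIs. This level differed between Tet-TKO libraries: forebrain-like cells of Tet-TKO libraries 1 to 4 had 45.8, 57.5, 131 and 3.64 Hox CPM, from 84, 172, 60 and 29 cells, and its part in the differences below was not tested.

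Over all kept cells of a library, the summed Hox level was 700 to 775 CPM in the 4 Tet-TKO and 413 to 420 in the 2 WT host libraries. Among the members highest in WT host cells, Hoxb2 had 59.9, 61.5, 77.4 and 84.9 in the Tet-TKO libraries and 38.1 and 41.1 in the WT host libraries, and Hoxc8 had 56.8, 79.3, 76.8 and 80.0 against 33.7 and 41.2. Hoxa9 had 43.9, 48.9, 34.7 and 33.6 against 23.3 and 24.9, and Hoxd1 had 41.0, 38.3, 20.6 and 20.7 against 15.7 and 13.5. The genotypes did not overlap for any of these 4, but the share of all genes without overlap over whole libraries was not counted. The mix of cells differed as well: erythroid-like cells, low in Hox, numbered 10 to 129 in the Tet-TKO and 1355 and 2322 in the WT host libraries. Genotypes were therefore compared within each class. The labels do not say that libraries of a group came from separate litters or pools, so p-values measure the spread between these libraries, which may be technical.

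Few differences within classes passed the test of the reported fit, which did not pair libraries by number (a paired fit is given below). Of 514 Hox gene and class pairs tested in 28 of the 29 E8.5 classes that could be fitted, 1 was called lower and 0 higher in Tet-TKO cells. A call needed a log2 fold change of 1 or more in size and an adjusted p no higher than 0.01 (edgeR quasi-likelihood test, Benjamini-Hochberg over all genes of the class). Over all genes and classes 943 (0.335%) of 281640 pairs were called lower and 625 (0.222%) higher. With DESeq2, 5 Hox pairs were called lower and 0 higher, where 0.57% and 0.412% of all pairs were: Hoxb1 in cluster 16, cluster 30 and mesenchyme-like cells, and Hoxb4 and Hoxb5 in mesenchyme-like cells. At an unadjusted p under 0.05, 53 Hox pairs were lower and 65 higher, shares to be read against 5.82% and 5.79% of all pairs. The Tet-TKO libraries lay entirely below the WT host libraries in 67 Hox pairs and entirely above in 57, where 14.1% and 10.8% of all pairs did so. The median absolute log2 fold change was 0.44 for Hox pairs and 0.22 over all. These 2 sets were not matched for level, on which the size of a fold can depend. In data simulated for the mesenchyme-like class, changes of 1.5 and 2 on the log2 scale were recovered in 56% and 75% of genes, and for the small notochord-like class in 6% and 27%. Hoxb13, Hoxc12 and Hoxd12 had too few UMIs to be tested in any class.

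**Figure D2:**
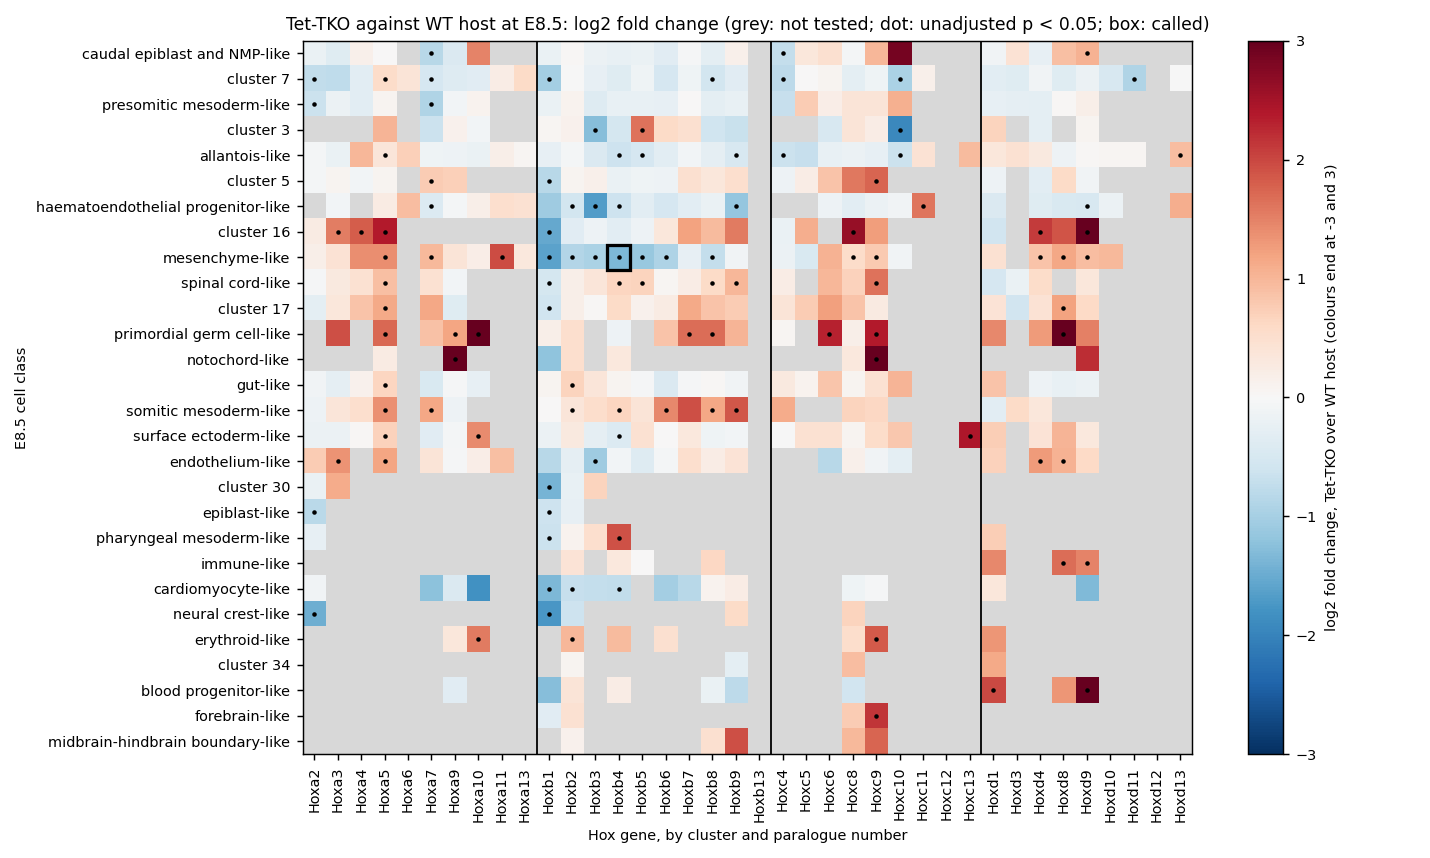
log2 fold change of Tet-TKO over WT host for 38 Hox genes (columns) in each E8.5 class (rows, ordered as in the map of levels), with grey cells not tested, dots at an unadjusted p under 0.05 and a box around the 1 called pair, Hoxb4 in mesenchyme-like cells. Blue lies in the Hoxb columns of mesenchyme-like cells and down the Hoxb1 column, red down the Hoxa5 column.

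Medians differed in sign between the clusters. The median log2 fold change was 0.05 over 145 Hoxa pairs, -0.09 over 184 Hoxb pairs, 0.38 over 97 Hoxc pairs and 0.38 over 88 Hoxd pairs, against 0.01 over all genes. Unadjusted p-values under 0.05 pointed lower in 15 and higher in 23 Hoxa pairs, lower in 30 and higher in 15 Hoxb pairs, lower in 6 and higher in 12 Hoxc pairs, and lower in 2 and higher in 15 Hoxd pairs. Pairs of a gene share its sequence and their libraries, so these counts describe the pairs and are not replicates.

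In mesenchyme-like cells, the Hoxb cluster had a lower summed level in Tet-TKO than in WT host libraries. Its summed level was 232 ± 18.6 CPM (SD, n = 4) against 416 ± 22.4 (n = 2), whereas the Hoxd sum was 78.2 ± 3.6 against 45.6 ± 3.8. Hoxb4, a gene of the neck and heart level that is also used in blood stem cells, had 17.0, 18.2, 27.3 and 23.0 CPM across Tet-TKO libraries 1 to 4, while both WT host libraries were higher, at 51.0 and 52.5. All 4 Tet-TKO values lay below both WT host values, without overlap. It fell by 1.34 on the log2 scale (SE 0.17, adjusted p = 0.00595, edgeR quasi-likelihood test), the 1 call among 30 members tested in this class, where 0.709% of 11989 genes were called lower and 0.133% higher. Left-out libraries moved its log2 fold change to between -1.44 and -1.27, and its adjusted p rose above 0.01 without Tet-TKO 2, 3 or 4 (0.0124, 0.0104 and 0.01002) or without WT host 1 or 2 (0.0525 and 0.0999).

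Neighbours of Hoxb4 had the same sign without passing the threshold in the reported edgeR fit, although DESeq2 called Hoxb1 (-1.61, adjusted p = 0.00015) and Hoxb5 (-1.14, adjusted p = 0.00119). Hoxb1 had 4.93, 8.35, 6.78 and 5.92 in Tet-TKO against 23.7 and 14.8 in WT host libraries (log2 fold change -1.61, SE 0.28, adjusted p = 0.0186). For Hoxb2, a regulator of hindbrain segments, the values were 54.8, 57.8, 75.7 and 55.9 against 106 and 112 (-0.89, SE 0.14, adjusted p = 0.0136). Hoxb6, a trunk mesoderm gene, had 56.0, 58.3, 47.6 and 59.5 against 100.04 and 106 (-0.94, SE 0.15, adjusted p = 0.0134). The genotypes did not overlap for these 3. Hoxb3 (-0.96), Hoxb5 (-1.15) and Hoxb8 (-0.73) were lower in all Tet-TKO libraries too, with adjusted p-values of 0.0565, 0.0186 and 0.0751. Hoxb7 and Hoxb9, between and beyond them in the cluster, overlapped between genotypes at means of 19.9 against 22.6 and 12.6 against 13.002. By unadjusted p, 8 members of all clusters were lower and 8 higher in this class, where 8.47% and 6.96% of all genes were.

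The Tet-TKO libraries lay entirely above the WT host libraries for 10 members, all of the Hoxa, Hoxc and Hoxd clusters, where 15.1% of all genes did so. They lay entirely below for 8 members, 7 of them of the Hoxb cluster, where 13.3% of all genes did so. Hoxd9, used in the caudal trunk and limb, had 27.6, 24.4, 29.8 and 27.5 against 13.7 and 13.9 (0.94, SE 0.16, adjusted p = 0.0185), with every Tet-TKO library above both WT host libraries. When clustering used no correction between libraries, the log2 fold change of Hoxd9 was -0.25. Hoxc9 had 28.9, 45.5, 40.1 and 46.2 against 25.5 and 19.0 (0.79, SE 0.23, adjusted p = 0.126). Hoxc8 had 69.1, 116, 137 and 132 against 62.9 and 84.7, which overlap (0.56, adjusted p = 0.315). The share of Hox UMIs from groups 9 to 13 was 20.1% ± 1.5 in Tet-TKO and 11.8% ± 1.6 in WT host libraries, and the mean paralogue number 6.18 ± 0.19 against 5.36 ± 0.12. The class held clusters in unequal parts, described below, and their part in these values was not tested.

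**Figure D3:**
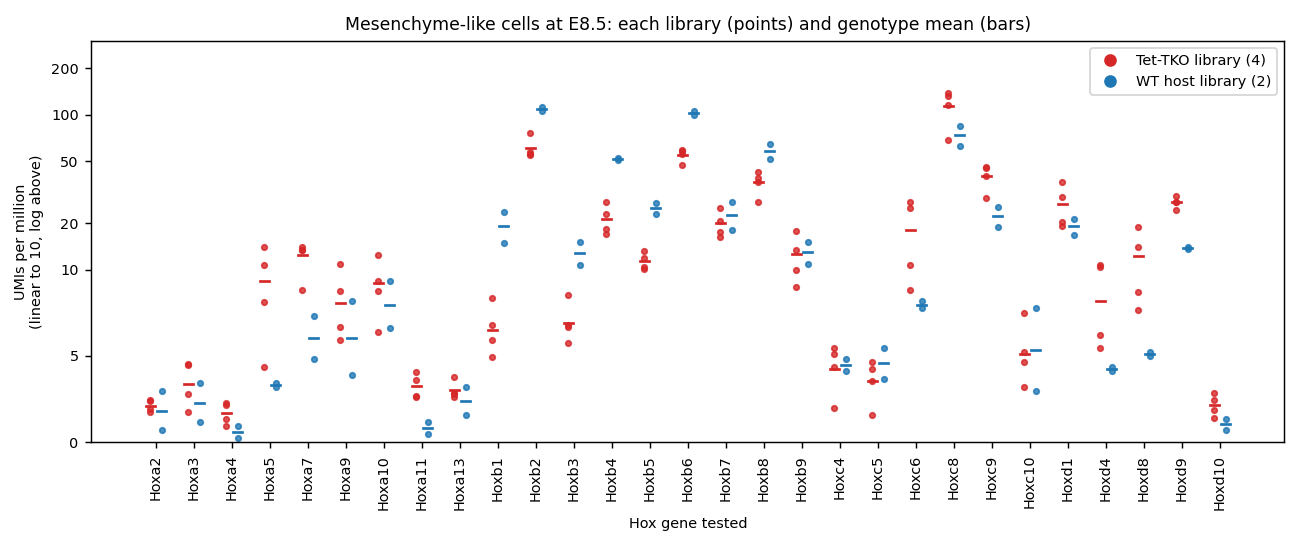
CPM (linear to 10, log above) of 29 Hox genes tested in E8.5 mesenchyme-like cells, with a point per library (4 Tet-TKO, 2 WT host) and a bar at each genotype mean. Hoxb1 to Hoxb6 and Hoxb8 have every Tet-TKO point below both WT host points, while 10 members of the other clusters, Hoxa5, Hoxc9 and Hoxd9 among them, have every Tet-TKO point above.

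The mesenchyme-like class was made of 2 clusters in unequal parts. Cluster 22, led by Tdo2, Lum and Col3a1, held 66.3% to 78.1% of the Tet-TKO cells of the class, and cluster 10, led by Postn and Prss35, held 67.9% and 70.4% of the WT host cells. Within cluster 10, Hoxb4 had 21.4, 27.7, 41.8 and 36.8 CPM in Tet-TKO against 57.9 and 60.1 in WT host libraries (-0.97, SE 0.22, adjusted p = 0.0436). Within cluster 22 it had 14.98, 13.8, 23.0 and 18.7 against 36.9 and 33.2 (-1.05, SE 0.23, adjusted p = 0.129). The genotypes stayed apart in both clusters, with a smaller fold than in the merged class. Hoxb6 and Hoxd9 also stayed apart in both clusters, and Hoxb2 did so with a log2 fold change of -0.50 in cluster 10 (adjusted p = 0.196) and -0.89 in cluster 22 (adjusted p = 0.102). Hoxb5 stayed apart in both as well, with -0.82 in cluster 10 (edgeR, adjusted p = 0.0983) and -1.08 in cluster 22 (adjusted p = 0.257). Several other members overlapped between genotypes in a cluster. Hoxb1 did in cluster 10, with 9.02, 15.3, 11.2 and 18.9 against 29.5 and 17.2 (-0.86, adjusted p = 0.264), Hoxb3 in cluster 10 (-0.42, adjusted p = 0.555), Hoxb8 in cluster 22 (-0.01, adjusted p = 0.997) and Hoxc9 in both (0.52 and 0.40). Markers of the class moved as well: Tagln had 228 to 302 CPM in Tet-TKO and 780 and 1058 in WT host libraries (-1.90, adjusted p = 0.00151), Acta2 717 to 961 against 1741 and 2205 (-1.24, adjusted p = 0.00413), and the cardiac gene Tnnt2 7.35 to 26.4 against 154 and 175 (-3.18, adjusted p = 0.00466). The part of these shifts in the Hox values of this class was not tested.

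The allantois-like class, a posterior neighbour, served as a comparison in the same libraries. Hoxb2 had 32.8, 28.6, 29.9 and 28.5 CPM there in Tet-TKO against 30.9 and 32.0 in WT host cells, so that the genotypes overlapped (-0.07, SE 0.15, adjusted p = 0.871). The genotype difference of Hoxb2 itself differed between the classes, by 0.85 on the log2 scale (SE 0.14, 95% interval 0.54 to 1.15, adjusted p = 0.00426, edgeR interaction term with library as block). It was 1 of 36 members past an adjusted p of 0.01, where 1.33% of all genes were. At an unadjusted p under 0.05 there were 7 members of negative and 8 of positive sign, against 14.5% of all genes in either direction. The call was lost without Tet-TKO 2 (0.85, adjusted p = 0.0118), WT host 1 (0.84, adjusted p = 0.083) or WT host 2 (0.83, adjusted p = 0.0978). Hoxb4 differed by 0.76 (adjusted p = 0.0132), Hoxb1 by 1.44 (0.0453) and Hoxd9 by -0.86 (0.0252). Between spinal cord-like and somitic mesoderm-like cells the difference reached an adjusted p of 0.01 for 0 of 23 members, with unadjusted p-values under 0.05 for 3, where 0.0261% and 6.57% of all genes passed these thresholds.

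Hoxb1 and Hoxd1 belong to paralogue group 1, whose members are the first to be switched on. Hoxb1 was lower at an unadjusted p under 0.05 in 11 and higher in 0 of 24 classes tested, where 5.82% and 5.79% of all gene and class pairs were. Hoxd1 was lower in 0 and higher in 1 of 22. None of these was called in the reported edgeR fit, although edgeR called Hoxb1 lower in cluster 16 with each Tet-TKO pair alone. DESeq2 called Hoxb1 lower in cluster 16 (adjusted p = 0.000878), cluster 30 (0.00469) and mesenchyme-like cells (0.00015). In cluster 16 Hoxb1 had 83.0, 73.3, 47.2 and 31.6 CPM in Tet-TKO against 179 and 156 in WT host libraries (-1.54, SE 0.33, adjusted p = 0.0423), with every Tet-TKO library below both. In cluster 30 it had 14.1, 39.02, 22.9 and 16.8 against 58.5 and 69.9 (-1.40, SE 0.32, adjusted p = 0.0906). In cardiomyocyte-like and neural crest-like cells it had a log2 fold change of -1.34 (adjusted p = 0.141) and of -1.74 (adjusted p = 0.277). In other classes of high Hoxb1 level the differences were smaller: presomitic mesoderm-like cells had 144, 145, 145 and 151 against 158 and 179 (-0.20, adjusted p = 0.704), and NMP-like cells 111, 103, 80.4 and 75.2 against 120 and 96.9. The Tet-TKO pairs differed in Hoxd1: in cardiomyocyte-like cells it had 18.7, 27.8, 2.91 and 1.95 against 10.505 and 8.11, and edgeR called it higher with libraries 1 and 2 alone (1.28, adjusted p = 0.000749) and lower with libraries 3 and 4 alone (-1.99, adjusted p = 0.00256). A fit with 1 pair alone takes its Tet-TKO spread from 2 libraries that resembled each other. Its adjusted p-values may therefore measure technical spread. With libraries 1 and 2 alone Hoxd1 was also called higher in blood progenitor-like, cluster 17 and surface ectoderm-like cells, and with libraries 3 and 4 alone lower in cluster 16. Blood progenitor-like cells had a low summed Hox level whose source was not tested, as given above. With all libraries, the log2 fold change of Hoxd1 there changed sign to -0.28 when clustering used no correction between libraries. Hoxd1 in cluster 7, its highest class, had 107, 133, 102 and 102 against 128 and 151, which overlap.

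Hoxa5, a gene of the neck and upper thorax whose promoter is the richest in CG of the 3 shown, was positive in 17 of 17 classes tested and had an unadjusted p under 0.05 in 11 of them, where 145326 of 281640 pairs of all genes were positive and 5.79% were higher at this threshold. Hoxa5 was chosen for these counts after they were seen, and its classes share their libraries. The counts therefore describe Hoxa5 and test nothing. In spinal cord-like cells it had 26.7, 28.8, 26.6 and 25.7 CPM in Tet-TKO against 13.3 and 15.7 in WT host libraries (0.90, SE 0.17, adjusted p = 0.0535), with a tight and separate level in each genotype. In cluster 16 it had 15.01, 24.2, 36.6 and 17.8 against 3.17 and 5.55 (2.38, SE 0.54, adjusted p = 0.0527). In somitic mesoderm-like cells it had 12.3, 29.4, 36.4 and 50.4 against 10.9 and 14.4, which overlap (1.38, adjusted p = 0.279). Its values in NMP-like cells, 23.7 to 33.1 against 24.4 and 31.7, and in presomitic mesoderm-like cells, 40.7 to 47.7 against 39.5 and 44.7, differed by less than the spread between libraries.

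**Figure D4:**
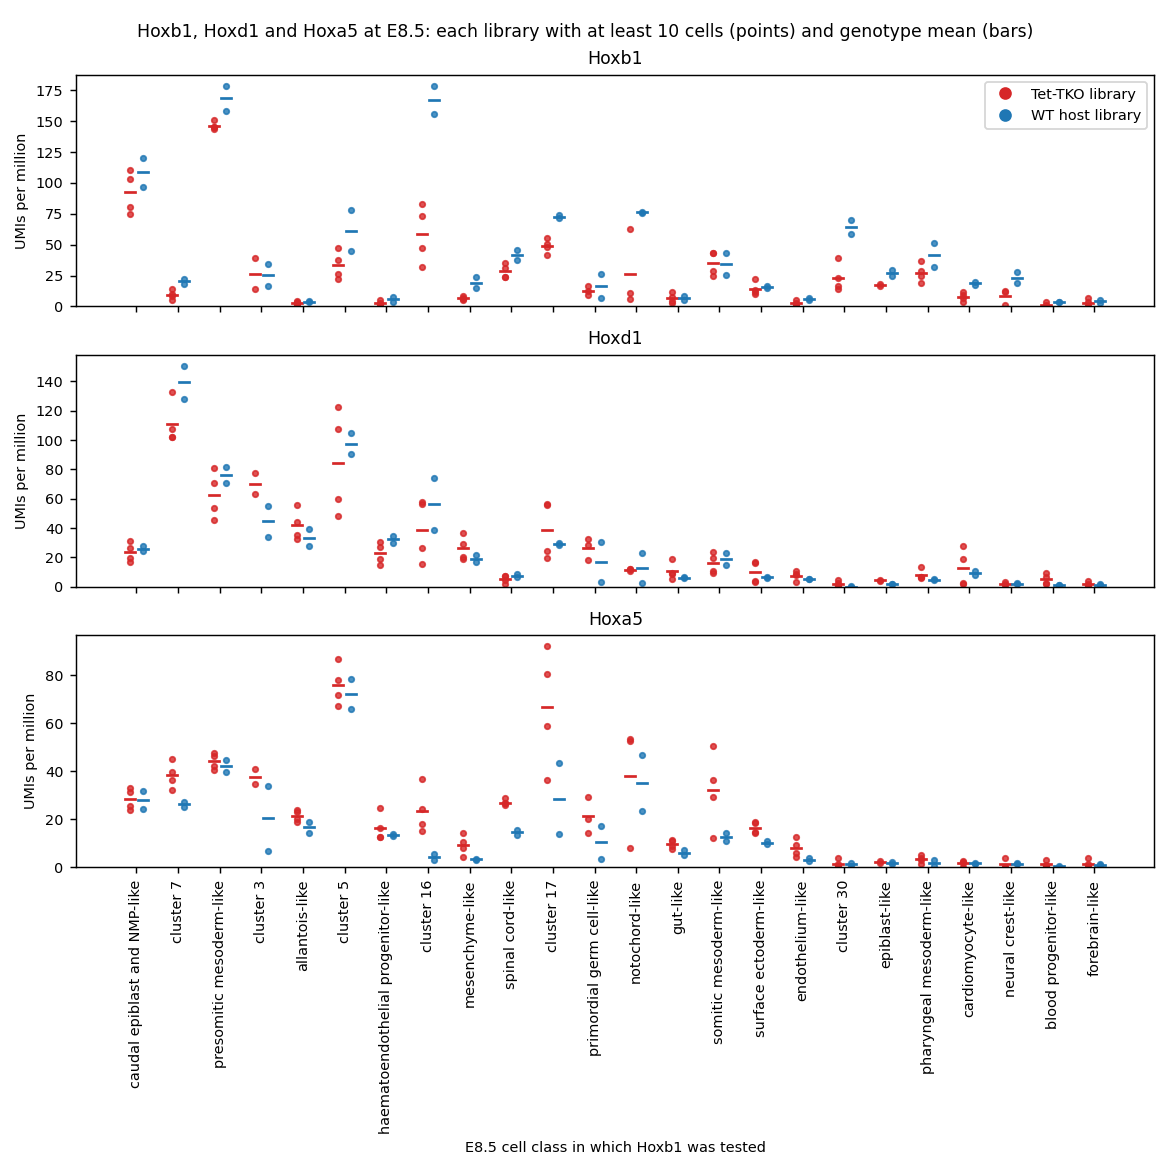
CPM of Hoxb1, Hoxd1 and Hoxa5 (panels) in the E8.5 classes in which Hoxb1 was tested, with a point per library of at least 10 cells and a bar at each genotype mean. Hoxb1 points of Tet-TKO libraries lie below the WT host points in cluster 16 and cluster 30 but beside them in NMP-like cells, and Hoxa5 points lie above in spinal cord-like cells and cluster 16.

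The trunk genes Hoxa9, Hoxb9, Hoxc8 and Hoxc9 were called in no class in the reported edgeR fit or by DESeq2. A fit with a replicate block, given below, called each of the 4 in some class. In allantois-like cells Hoxa9 had 113, 111, 95.8 and 97.4 in Tet-TKO against 118 and 116 (-0.16, SE 0.15, adjusted p = 0.656). Hoxb9 had 24.0, 24.3, 31.0 and 29.3 against 36.0 and 38.4 (-0.47, SE 0.13, adjusted p = 0.136), lower in every Tet-TKO library. In NMP-like cells Hoxa9 had 30.7, 50.6, 125 and 113 against 59.4 and 155 (-0.44, SE 0.52, adjusted p = 0.761), Hoxc8 had 172, 265, 321 and 306 against 184 and 371, and Hoxb9 243, 282, 230 and 330 against 205 and 292. These overlap. Hoxc9 in the same cells had 44.6, 76.6, 163 and 139 against 38.87 and 67.0 (0.99, SE 0.45, adjusted p = 0.418), where Tet-TKO libraries 3 and 4 were the highest, and it was called higher with these 2 alone (1.47, adjusted p = 0.00104). The adjusted p of that fit rests on 2 Tet-TKO libraries that resembled each other, a spread that may be technical. Across classes Hoxc9 had an unadjusted p under 0.05 and a higher value in 7 of 21 classes and a lower value in 0, and Hoxd8 in 5 and 0 of 15, where 5.79% and 5.82% of all pairs did so. Hoxd8 was chosen after its values were seen, and the classes share their libraries.

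In haematoendothelial progenitor-like cells 22 of 29 members tested had a negative and 7 a positive log2 fold change, where 4912 and 5230 of 10142 genes did. Every Tet-TKO library lay below both WT host libraries for 10 members and above for 3, where 1336 and 1148 genes did so. The abundant members Hoxa9 and Hoxa10 overlapped between genotypes. Hoxa9 had 104, 115, 111 and 110 against 113 and 112, and Hoxa10 75.2, 68.5, 77.9 and 64.0 against 70.8 and 55.4. Hoxb3, a member of much lower level, had 3.40, 3.83, 3.56 and 2.34 against 10.2 and 12.02 (-1.68, SE 0.29, adjusted p = 0.0178), with the genotypes well apart. Hoxb9 had 13.1, 17.3, 12.3 and 24.2 against 29.5 and 42.1 (-1.16, SE 0.27, adjusted p = 0.069).

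Because the Tet-TKO libraries fell into pairs, each pair was also compared alone with the same 2 WT host libraries, a choice made after seeing the data. Without libraries 1 and 2, 22 Hox pairs were called lower and 25 higher, where 1.87% and 2.26% of all pairs were. Without libraries 3 and 4, 7 were called lower and 12 higher, where 0.915% and 0.625% of all pairs were, so that calls over all genes rose as well. Of the 47 Hox pairs called in the first comparison and the 19 called in the second, 4 were called in both. They were Hoxb4 in mesenchyme-like cells, Hoxb1 in cluster 16 and Hoxb3 in haematoendothelial progenitor-like cells, all lower, and Hoxa5 in cluster 16, higher. The share of all genes called in both was not counted. Hoxb4 in mesenchyme-like cells had a log2 fold change of -1.15 in the first comparison and -1.52 in the second, and Hoxb1 in cluster 16 had -2.18 and -1.06. Both comparisons share their WT host libraries, and each takes its Tet-TKO spread from 2 libraries that resembled each other.

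A set of 4 lists of genes that act with or on the Hox clusters were set beside the members. TALE cofactors, which bind DNA with Hox proteins (9 listed, 224 tests), Polycomb group genes (15, 377 tests) and trithorax group genes (8, 221 tests) had 0 calls in either direction, with unadjusted p-values under 0.05 for 14 lower and 20 higher, 7 and 29, and 1 and 21, where 5.82% and 5.79% of all pairs were. Inducers and upstream regulators (15 listed, 310 tests) had 3 calls lower and 2 higher, where 0.335% and 0.222% of all pairs were called. The 3 lower calls were all Cdx4, a caudal homeobox gene that opens Hox clusters: in allantois-like cells it had 14.03 to 19.4 CPM in Tet-TKO against 54.3 and 47.4 in WT host libraries (-1.64, adjusted p = 0.00343), in cluster 5, led by Lhx1 and Osr1, 20.6 to 36.3 against 145 and 116 (-2.11, adjusted p = 0.000947), and in haematoendothelial progenitor-like cells 1.56 to 4.44 against 26.3 and 26.2 (-2.91, adjusted p = 0.000754). The growth factor gene Fgf8 rose in cluster 5 (89.5 to 122 against 24.5 and 20.2, 2.29, adjusted p = 0.000559). In the 3 classes where Cdx4 fell, summed Hox levels were 1010 ± 49.1 against 1110 ± 66.7, 994 ± 142 against 955 ± 170 and 751 ± 51.6 against 877 ± 59.9 CPM.

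At E7.5 there was 1 library per genotype, so values carry exact 95% Poisson intervals for counting error only and no test. Classes were rebuilt for this stage, with their own cluster numbers, and levels are given for classes with at least 50 cells in both libraries. Outside extraembryonic-like cells the members of highest level in either library included Hoxb1 (34.5 in Tet-TKO, 47.2 in WT host), Hoxb2 (38.7 and 46.4), Hoxd1 (22.2 and 10.9) and Hoxd9 (11.6 and 7.98 CPM). The summed level was 195 (192 to 198) in Tet-TKO and 208 (204 to 212) in WT host cells, where the E8.5 libraries had 423 to 775 in the same cells.

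The posterior code of the allantois was already present. Allantois-like cells at E7.5 (107 of Tet-TKO and 90 of host origin) had 1049 and 1149 Hox CPM, 42.5% and 43.7% of them from groups 9 to 13, where the E8.5 means were 1010 and 1110. Hoxb6 had 135 (122 to 149) and 144 (124 to 165), and Hoxa10 102 (90.04 to 114) and 109 (91.8 to 128). Hoxd9 had 98.7 (87.3 to 111) against 131 (112 to 152), and with Hoxb9 and Hoxc4 was among the 3 of 36 detected members whose intervals lay apart and lower in Tet-TKO cells, where 2.41% of all detected genes did so and 3.9% of those with at least 10 UMIs. It was 0 members in the other direction, against 2.14% and 3.53% of genes. NMP-like cells, by contrast, held 292 and 539 Hox CPM from 87 and 256 cells, at a mean paralogue number of 1.92 and 2.05, where E8.5 cells held 1818 and 2003 at 6.23 and 5.92. Hoxb1 had 120 (104 to 136) in Tet-TKO and 186 (173 to 201) in WT host cells of this class. Hoxb2, Hoxb4 and Hoxb8 were also lower in Tet-TKO beyond their intervals. In all, 5 of 25 detected members were lower and 0 higher in this way, where 3.13% and 2.25% of all detected genes were, and 5.08% and 3.58% of those with at least 10 UMIs. In presomitic mesoderm-like cells Hoxb1 was level at 355 (324 to 388) and 360 (335 to 387). Nascent mesoderm-like cells (401 of Tet-TKO and 103 of host origin) went the other way, with 94.2 and 57.9 Hox CPM. There 2 of 30 detected members, Hoxb2 and Hoxb3, were higher in Tet-TKO beyond their intervals and 0 lower. The share of all genes is not given for this class.

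**Figure D5:**
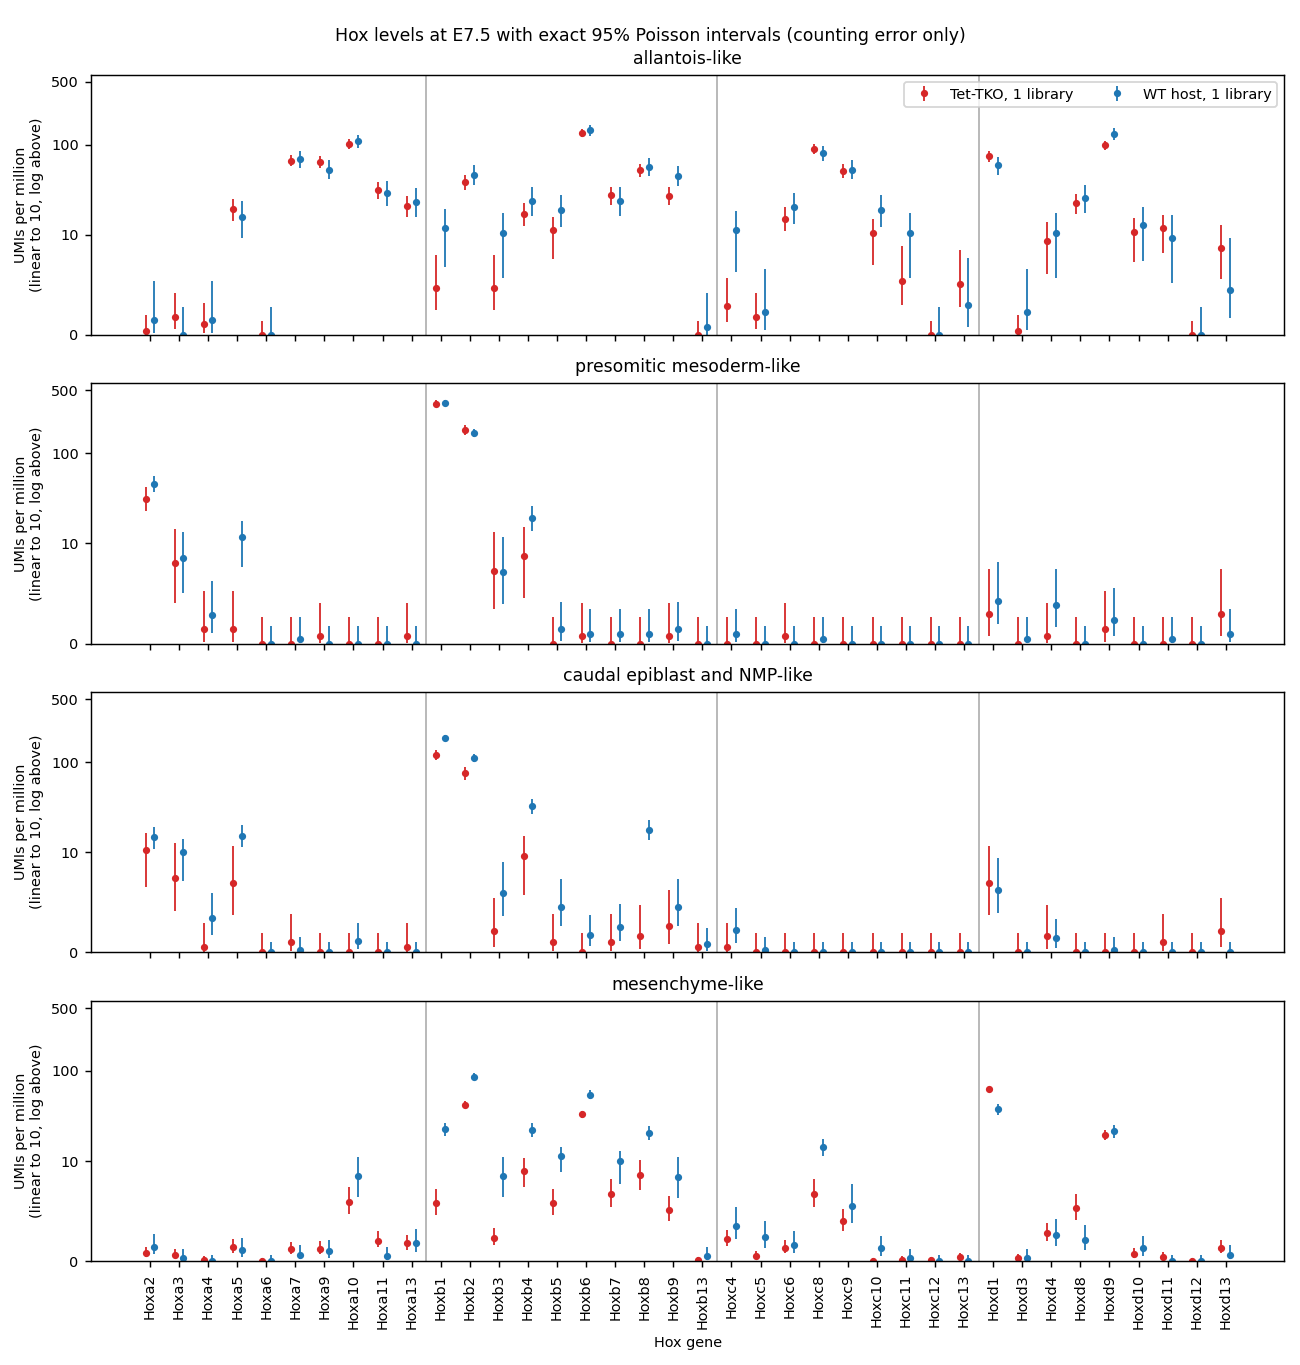
CPM (linear to 10, log above) of 38 Hox genes in 4 E7.5 classes (panels), with exact 95% Poisson intervals, for 1 Tet-TKO and 1 WT host library. The allantois-like panel is filled up to the high paralogue numbers, the presomitic and NMP-like panels hold Hoxb1 and Hoxb2 above all, and in the mesenchyme-like panel Hoxb1 to Hoxb6 and Hoxb8 lie lower in Tet-TKO cells.

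Mesenchyme-like cells at E7.5 (563 of Tet-TKO and 434 of host origin) had 260 (251 to 268) and 377 (362 to 393) Hox CPM. Intervals of Hoxb1, Hoxb2, Hoxb3, Hoxb4, Hoxb5, Hoxb6, Hoxb8, Hoxc5, Hoxc8 and Hoxc10 were lower in Tet-TKO cells without overlap, 10 of 37 members detected, where 6.37% of all detected genes were lower in this way. Those of Hoxd1 and Hoxd8 were higher, where 4.23% of all genes were. With at least 10 UMIs, 9 of 29 members were lower and 2 higher, against 9.8% and 6.58% of all genes. Hoxb4 had 8.96 (7.44 to 10.7) against 22.1 (18.6 to 26.1), Hoxb2 42.4 (38.98 to 46.0) against 86.5 (79.3 to 94.1) and Hoxb1 5.80 (4.59 to 7.23) against 22.4 (18.9 to 26.5). Hoxd1 had 62.3 (58.2 to 66.7) against 37.4 (32.8 to 42.6), while Hoxd9 was level at 19.4 and 21.3. The 7 Hoxb genes are those with every Tet-TKO library below both WT host libraries at E8.5. Here cluster 5, led by Tdo2 and Tnnt2, held 84.7% of the Tet-TKO and 80.6% of the WT host cells, and within it Hoxb4 had 9.28 and 23.3 and Hoxb2 45.2 and 91.9 CPM. With 1 library each, differences between these libraries cannot be told apart from differences between the genotypes.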

How the data were processed

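Single-cell libraries of sorted Tet-TKO and WT host cells were analysed from the UMI counts deposited by the authors, who aligned 10x 3′ reads with Cell Ranger to mm10 with a tdTomato sequence. Counts were raw UMIs per gene and cell, and 0 columns belonged to other samples. Cells were kept from 1500 UMIs upwards if no more than 30% of these were mitochondrial and no more than 35% from ribosomal protein genes. E7.5 and E8.5 cells were clustered separately (Python 3.11.15, scanpy 1.11.5: 2500 variable genes without Hox genes, 50 principal components, mutual nearest neighbours with k of 20, 15 neighbours, Leiden resolution 2), and clusters were named from markers. Doublets were kept and removed only in an alternative. Counts were summed per class and library of at least 10 cells and tested with edgeR 4.0.16 (R 4.3.3, quasi-likelihood, Benjamini-Hochberg over all genes of a class), with calls where the adjusted p was no higher than 0.01 and the log2 fold change 1 or more in size. DESeq2 1.42.0 was an alternative. The test was checked on simulated data. E7.5 has 1 library per genotype and was not tested.

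The members, gene lists and markers were chosen with earlier results of these data known. Values per library are given for called members (up to 3 per class), for the highest member of each cluster in E8.5 WT host cells, for the 5 highest at E7.5, for Hoxa9, Hoxb9, Hoxc8 and Hoxc9, and for paralogue group 1; others were chosen after their values were seen. Some results under these rules are not reported here. Leaving out pairs of Tet-TKO libraries, unmerged clusters and leave-one-out fits of the class difference were added after seeing the data. Intervals are 95% and cover counting error only.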

Additional observations from a re-analysis of the deposited data

Results flagged for a closer look

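In 74 groups of 4 Tet-TKO libraries, 3 values stood apart from the other libraries of their group by Dixon's criterion, which chance alone would flag in about 1 in 20 groups. Hoxa7 in mesenchyme-like cells was lowest in Tet-TKO library 1, at 8.85 CPM against 13.4 to 13.99 in the others. Hoxb2 in the same cells was highest in Tet-TKO library 3, at 75.7 against 54.8 to 57.8. Hoxb2 in somitic mesoderm-like cells was lowest in Tet-TKO library 2, at 73.1 against 91.0 to 92.9.

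The genotype difference of Hoxb2 differed between allantois-like and mesenchyme-like cells by 0.85 on the log2 scale (adjusted p = 0.00426, edgeR interaction term).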

How the results depend on the processing

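The count of Hox pairs called lower, 1 as reported, was 5 with DESeq2, 9 with no filter on low counts, 2 with doublets removed, 2 at Leiden resolution 3, 3 with no correction between libraries, and 0 with Hox genes allowed in clustering or with Tet-TKO libraries 1 and 2 and 3 and 4 summed, where 56 and 46 pairs had an unadjusted p under 0.05. The count called higher, 0 as reported, was 23 with no filter, 11 with no correction, and 1 with at least 30 cells, with at least 3000 UMIs, with cells matched on tdTomato or with clusters not merged. In these last 4 settings 633 of 260784, 644 of 278623, 697 of 265444 and 833 of 351454 tests of all genes were called higher. Leaving out 1 library gave 0 to 2 lower and 0 to 14 higher, the 14 without WT host 1. Of these, 13 were in primordial germ cell-like and 1 in immune-like cells, each set against WT host 2 alone, which is assumed to vary like the other libraries; WT host 1 had 17 and WT host 2 had 58 primordial germ cell-like cells. Leaving out Tet-TKO 1 and 2 gave 22 lower and 25 higher, and leaving out Tet-TKO 3 and 4 gave 7 and 12; both were chosen after seeing the data. Over all genes, lower calls numbered 943 as reported, 1605 with DESeq2, 3705 with no filter, 4358 without Tet-TKO 1 and 2 and 222 without WT host 2. Higher calls over all genes numbered 625 as reported, 3181 with no filter, 1279 with no correction and 663 without WT host 1. All genes had 281640 tests as reported and with DESeq2, 623737 with no filter, 271543 with no correction and 232884 without Tet-TKO 1 and 2. Hox tests numbered 514, 514, 1032, 500 and 421 in the same order. Lower calls over all genes were also 1315 with no correction, 920 of 274237 with doublets removed and 913 of 313126 at Leiden resolution 3. They were 1078 of 306116 with Hox genes allowed in clustering and 558 of 272886 with Tet-TKO pairs summed. The cause of these shifts was not tested.

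With the replicate number as a block, which also leaves out Tet-TKO 3 and 4 since no WT host library shares their numbers, 15 Hox pairs were called lower and 23 higher, where 1.55% and 1.05% of all pairs were; without the block, the same 4 libraries gave 7 and 12. Of the trunk genes, this block fit called Hoxa9 lower in NMP-like cells (-1.31), Hoxb9 lower in haematoendothelial progenitor-like cells (-1.18), Hoxc9 higher in erythroid-like and forebrain-like cells, and Hoxc8 higher in cluster 16, cluster 34 and pharyngeal mesoderm-like cells. Erythroid-like and forebrain-like cells had low summed Hox levels whose source was not tested, as given above. For cell type proportions the paper set each Tet-TKO sample against a matching WT host embryo, without saying which libraries match. Only 2 numbers are shared between the genotypes and no label says that a number marks a litter or day, so the pairing was not used in the reported fit. The deviations of same-numbered libraries correlated at 0.0111 to 0.541 over 25 classes, with a median of 0.241. The correlation was 0.504 in mesenchyme-like and 0.541 in allantois-like cells. With 4 libraries, the block fit had little left from which to estimate the spread.

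Hoxb4 in mesenchyme-like cells had a log2 fold change of -1.32 with the Tet-TKO pairs summed (adjusted p = 0.011, edgeR), -0.85 at Leiden resolution 1 (0.0642) and -1.07 with Hox genes allowed in clustering (0.0162), and -1.44 to -1.27 with 1 library left out. The difference of Hoxb2 between allantois-like and mesenchyme-like cells ranged from 0.74 to 0.94 with 1 library left out, and 0 to 7 members passed. Without thinning, 14.9% of WT host forebrain-like cells had a Hox UMI.

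The 88 named pairs were those with an unadjusted p under 0.05 and no overlap between genotypes, plus pairs whose fold is printed. Of their 1688 fold changes, 1592 kept their direction and side of the threshold, 79 gained and 8 lost a call, and 9 changed sign. All 8 losses were of Hoxb4 in mesenchyme-like cells, the only pair with a call to lose. Most settings reuse the libraries that picked the pairs, so these counts are not independent tests. In allantois-like cells the changes of sign were Hoxa9 (0.0074 with the replicate block, 0.042 with no correction, 0.0063 without Tet-TKO 3 and 4) and Hoxb2 (0.0496, 0.069 and 0.037 in the same order). With no correction between libraries they were Hoxd1 in blood progenitor-like cells (-0.28) and Hoxa7 (-0.59) and Hoxd9 (-0.25) in mesenchyme-like cells. Classes with few cells limit the test, as the recovery in notochord-like cells shows.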
